A study of Mus musculus with 16 samples.

Results

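Lysosome genes were followed in the RNA of mouse bone marrow-derived macrophages (BMDMs) exposed to soluble factors of a mammary tumor cell line. The 42 genes came from a list of lysosomal hydrolases, lysosomal membrane proteins, subunits of the vacuolar proton pump and their transcriptional regulators. That list was chosen with earlier results of these data known. Each of the 42 genes was found by its symbol among the 55487 genes of the count table. They comprised 10 luminal proteases, 14 other luminal enzymes and their helpers, 8 membrane proteins and transporters, 7 subunits of the pump (V-ATPase) and 3 regulators. All 42 passed the filter on low counts, which kept 12372 genes with more than 1 CPM (counts scaled to 1000000 per sample) in at least 2 samples.

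Macrophages came from wild-type Balb/c mice of 8 weeks and were grown in culture, and 16 samples fell into 6 groups. DMEM (2 samples) is culture medium without tumor factors and CM (3 samples) is medium conditioned by 4T1 cells, a mouse mammary tumor line. CM + Rux (3 samples, labelled 4 h) held CM and 0.5 μM ruxolitinib, an inhibitor of the kinases JAK1 and JAK2, and CM + Rux + IKK-16 (3 samples) held in addition 0.8 μM IKK-16, which inhibits the IKK kinases upstream of NF-κB. DMEM + Rux (3 samples) received ruxolitinib without CM, with no dose in the labels, and CM + Rux 2 h (2 samples) is a group set apart only by the label 2 h, whose meaning is not stated in the sources used here. The study's methods describe treatment for 4 h. Nothing in the labels says that samples of a group came from separate animals or cultures, so that p-values measure the spread between these samples, which may be technical.

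The lysosome is the acidic compartment in which macrophages break down engulfed particles, lipoproteins and their own worn-out organelles. Its lumen is acidified by the V-ATPase, a proton pump with a membrane part (V0) and a cytosolic part (V1), and holds proteases, glycosidases and lipases that work at low pH. Many lysosome genes are switched on together by the MiT/TFE transcription factors, among them Tfeb, Tfe3 and Mitf, which bind short E-box sequences near the start of their targets.

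Between 18449388 and 46215853 fragments were counted per sample. The 8 macrophage markers examined were detected in every group, with a summed level of 38700 to 55400 CPM. Summed markers of neutrophils reached at most 3.32 CPM and those of epithelial cells at most 1.45 CPM, with Ly6g and Krt14 at 0 in all samples. Markers of B cells summed to at most 0.233 CPM, those of fibroblasts to at most 11.4 CPM and those of T and NK cells to at most 13.1 CPM, nearly all from Cd4, with Cd8a and Ncr1 at 0. Of 14 lysosome genes, among them Psap, Ctsb, Ctsd, Lamp1 and Cd68, the sample numbered 3 was the highest in each of the 5 groups that have one. DMEM has no sample 3, and CM + Rux 2 h has no sample 1.

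The 42 lysosome genes together took 6.52% and 6.74% of all counts in the DMEM samples, of which Ctsb, Psap and Ctsd alone took 3.51% and 3.54%. Per kilobase of exon, the highest levels were those of Psap, the precursor of the saposins that help degrade sphingolipids (4014 CPM per kb), of the cysteine protease Ctsb (2369 CPM per kb) and of the aspartic protease Ctsd (2346 CPM per kb). The lowest were those of the V1 subunit Atp6v1h (8.19 CPM per kb), of Mcoln1, a calcium channel of the lysosomal membrane (11.5 CPM per kb), and of Tfeb (12.2 CPM per kb). In CM the share of all counts was 4.80%, 4.84% and 5.67%, below both DMEM samples, and in CM + Rux + IKK-16 it was 6.02%, 5.57% and 6.58%. This share depends on how much other genes take up. On levels scaled by relative log expression (RLE), a scaling that centres the ratios of all genes and is used for every CPM value here, the summed level was 56530 and 59510 CPM in DMEM and 50390, 55290 and 60410 CPM in CM, and the groups overlapped. CM samples 1 and 2 lay below both DMEM samples, and CM sample 3 lay above both. DMEM has no sample 3 to set beside it. Of the samples numbered 1, DMEM had 56530 CPM and CM 50390 CPM, and of those numbered 2, DMEM had 59510 CPM and CM 55290 CPM.

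**Figure D1:**
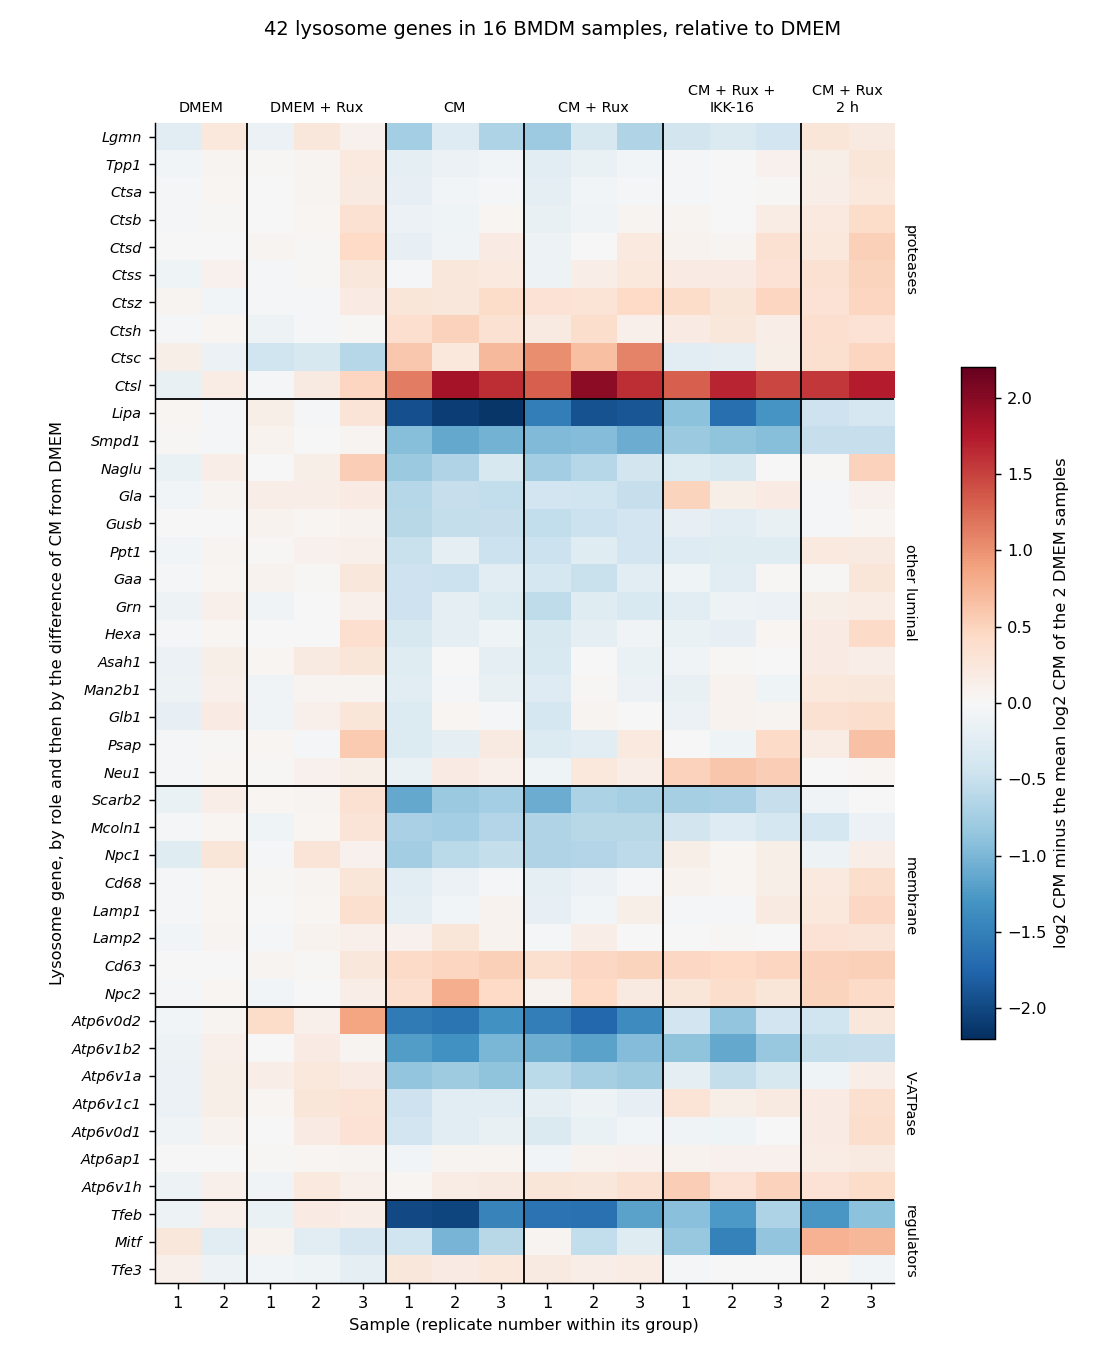
Level of each of the 42 lysosome genes (rows, grouped by role) in each of the 16 samples (columns, grouped by treatment), as log2 CPM minus the mean log2 CPM of the 2 DMEM samples. Blue rows in the 3 CM and 3 CM + Rux samples are Lipa, Tfeb, Atp6v0d2, Atp6v1b2 and Smpd1, and the darkest red row is Ctsl.

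The promoters of several of these genes hold an E-box of the kind bound by MiT/TFE factors, and their sequences are shown here because 3 of the genes measured encode those factors. Promoter sequences of 300 bases (250 before to 50 after the start) were taken from RefSeq on GRCm38.p6, with 42 entries for 34 of the 42 genes. The 8-base string GTCACGTG, or its reverse complement CACGTGAC, stood in 9 of these 42 entries (21.4%) and in 2.25% of all 32851 promoters in that table. Its 6-base core CACGTG reads the same on both strands and is contained in the longer string. This core stood in 12 of the 42 entries (28.6%) and in 7.15% of all. These shares count entries, not genes, and their difference was not tested. The windows of Gla, Lgmn, Mcoln1 and Naglu, which were called lower in CM, and of Lamp1 and Ctsa, which were not called, are given 5′ to 3′ on the strand of the gene, with each copy of the 8-base string in capitals.
Gla: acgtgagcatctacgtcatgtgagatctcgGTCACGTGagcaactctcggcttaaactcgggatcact
Lgmn: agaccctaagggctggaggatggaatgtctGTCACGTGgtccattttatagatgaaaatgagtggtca
Mcoln1: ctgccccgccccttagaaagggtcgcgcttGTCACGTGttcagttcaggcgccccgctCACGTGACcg
Naglu: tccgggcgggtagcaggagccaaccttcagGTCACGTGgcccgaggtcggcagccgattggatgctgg
Lamp1: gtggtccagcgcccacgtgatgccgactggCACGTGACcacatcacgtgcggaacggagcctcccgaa
Ctsa: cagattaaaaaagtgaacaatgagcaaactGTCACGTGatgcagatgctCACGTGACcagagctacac
These windows lie on GRCm38.p6 at chrX:134601164-134601231 (minus strand) for Gla, chr12:102439106-102439173 (minus, one of 2 entries of this gene) for Lgmn, chr8:3500416-3500483 (plus) for Mcoln1, chr11:101069989-101070056 (plus) for Naglu, chr8:13159103-13159170 (plus) for Lamp1 and chr2:164833729-164833796 (plus, one of 2 entries of this gene) for Ctsa. The windows of Lgmn and Ctsa lie wholly inside these genes as the annotation of the count table places them, so that their entries stand for an inner start. Counted from the start site of each promoter entry at 0, the string began at -196 in Gla, -51 in Lgmn, -73 in Mcoln1, -75 in Naglu, -28 in Lamp1 and -14 in Ctsa. Of the 14 genes called lower in CM, 11 have a promoter entry and 4 of these hold the 8-base string. Of the 28 others, 23 have an entry and 5 hold it (Ctsa, Ctsd, Glb1, Lamp1 and Atp6v0d1). A match is a description of the letters and says nothing of binding in these cells.

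Exposure to tumor factors was examined by comparing CM with DMEM. In CM, 14 of the 42 lysosome genes were lower and 3 were higher. The lipid-degrading enzyme Lipa fell to 0.242 of its DMEM level, the regulator Tfeb to 0.286 and the V-ATPase subunit Atp6v0d2 to 0.354, whereas the protease Ctsl rose 2.94-fold. A gene was called where the adjusted p of edgeR's quasi-likelihood test (Benjamini-Hochberg over 12372 genes) was below 0.05 and the log2 fold change was beyond 0.5. Of all genes tested, 24.1% were called lower and 20.9% higher by this rule, so that 14 of 42 and 3 of 42 are read against those shares. The median log2 fold change was -0.15 over the 42 genes and -0.00496 over all genes. This fit takes no account of the replicate number of a sample. In an edgeR fit blocked by that number, 2 of the 42 genes were called higher and 14 lower. By unadjusted p below 0.05, 8 genes were higher and 28 lower in the blocked fit, against 7 and 19 without the block.

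Among the luminal proteases, Ctsl and Ctsc rose, Lgmn fell and 7 were not called. Ctsl, a cysteine protease (chromosome 13, 64359337 to 64370890, minus strand, GRCm38), stood at 853 and 1057 CPM in DMEM and at 2080, 3389 and 2941 CPM in CM. The lowest CM sample was above the highest DMEM sample, and the log2 fold change was 1.55 ± 0.23 (SE, adjusted p = 5.31e-05). Ctsc, the dipeptidyl peptidase that activates serine proteases of granules, stood at 360 and 302 CPM in DMEM and at 496, 385 and 543 CPM in CM. Its groups did not overlap but lay close, and its log2 fold change of 0.52 ± 0.17 (adjusted p = 0.0142) was near the fold limit. Without CM sample 1, without CM sample 3 or without DMEM sample 2, Ctsc was not called. Lgmn, an endopeptidase that cuts after asparagine, fell by 0.57 ± 0.17 on the log2 scale, a call that was lost without CM sample 1 or DMEM sample 2. The major proteases Ctsb and Ctsd and also Ctsa, Ctss and Tpp1 had log2 fold changes of -0.13 to 0.15 and overlapped between the groups, while Ctsh (0.41, adjusted p = 7.42e-04) and Ctsz (0.31, adjusted p = 0.0173) passed the p limit and not the fold limit.

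The other luminal enzymes showed 5 genes lower and 0 higher of 14. Lipa, the acid lipase that hydrolyses cholesteryl esters and triglycerides (chromosome 19, 34492318 to 34527474, minus strand), stood at 2055 and 1935 CPM in DMEM and at 522, 475 and 451 CPM in CM. The samples of a group lay close to each other and far from those of the other group, with a log2 fold change of -2.05 ± 0.18 (adjusted p = 4.1e-07). Smpd1, acid sphingomyelinase, had 49.9 ± 1.15 CPM (SD, n = 2) in DMEM against 24.4 ± 1.58 CPM (SD, n = 3) with tumor factors, and fell by 1.03 ± 0.07 (SE) on the log2 scale. Naglu, which degrades heparan sulfate, fell by 0.61, the α-galactosidase Gla by 0.56 and the β-glucuronidase Gusb by 0.55 on the log2 scale. For Gla the samples stood at 205 and 221 CPM in DMEM and at 139, 150 and 146 CPM in CM, without overlap. The call of Naglu was lost without DMEM sample 2. The thioesterase Ppt1 (-0.38), the acid α-glucosidase Gaa (-0.38) and progranulin, Grn (-0.32), passed the p limit and not the fold limit. Hexa, Asah1, Man2b1, Glb1, Psap and Neu1 lay between -0.22 and 0.05.

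Of 8 membrane proteins and transporters, 3 fell and 1 rose. Npc1 and Npc2 work as a pair that hands cholesterol out of the lysosome, and one was called lower and the other higher. Npc2, the soluble carrier of that pair, stood at 923 and 982 CPM in DMEM and at 1230, 1666 and 1287 CPM in CM, a log2 fold change of 0.55 ± 0.13 (adjusted p = 0.00273). Npc1, the membrane transporter, stood at 183 and 264 CPM in DMEM and at 129, 145 and 153 CPM in CM, a log2 fold change of -0.65 ± 0.14 (adjusted p = 8.53e-04). For neither gene did the groups overlap. The 2 DMEM samples of Npc1 lay far apart, and without DMEM sample 2 Npc1 was not called. Npc2 was not called without CM sample 2. Scarb2, the receptor that carries glucocerebrosidase to lysosomes, fell by 0.89 and Mcoln1 by 0.70 on the log2 scale. The abundant proteins of the lysosomal membrane were not called, with log2 fold changes of -0.05 for Lamp1, 0.15 for Lamp2 and -0.14 for Cd68, and Cd63 (0.47, adjusted p = 1.48e-04) was below the fold limit.

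Of 7 V-ATPase subunits, 3 fell and 0 rose. Atp6v0d2, a V0 subunit abundant in osteoclasts, stood at 41.3 and 44.9 CPM in DMEM and at 14.7, 14.1 and 17.1 CPM in CM, with no overlap and a log2 fold change of -1.50 ± 0.23 (adjusted p = 5.76e-05). Atp6v1b2 and Atp6v1a, subunits of the part of the pump that splits ATP, fell by 1.18 and 0.85. Atp6v1c1 (-0.32) passed the p limit and not the fold limit. Atp6v0d1, the widely expressed counterpart of Atp6v0d2, stood at -0.27 with an adjusted p of 0.0509. In the edgeR fit blocked by replicate number, Atp6v0d1 had -0.33 (adjusted p = 3.31e-04), under the fold limit. Atp6v1h and Atp6ap1 had log2 fold changes of 0.13 and 0.02 and overlapped between the groups.

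The 3 regulators differed among themselves. Tfeb (chromosome 17, 47737030 to 47792419, plus strand) stood at 64.2 and 74.2 CPM in DMEM and at 17.3, 17.0 and 25.1 CPM in CM. Every CM sample was below both DMEM samples, with a log2 fold change of -1.80 ± 0.21 (SE, adjusted p = 4.64e-06). Mitf stood at 184 and 131 CPM in DMEM and at 115, 76.5 and 101 CPM in CM. Its groups did not overlap, but 1 DMEM sample lay near the CM samples, and the log2 fold change of -0.69 ± 0.23 (adjusted p = 0.0163) was not called without CM sample 2 or without DMEM sample 1. Tfe3 stood at 449 and 388 CPM in DMEM and at 494, 471 and 488 CPM in CM, a log2 fold change of 0.21 ± 0.08 (adjusted p = 0.0253) below the fold limit.

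Counts of calls in this comparison depended on the scaling. With scaling by total counts alone, the median of all genes shifted by -0.31 on the log2 scale, and 20 of the 42 genes were called lower and 1, Ctsl, higher, while Ctsc and Npc2 were no longer called. Of all calls, 46.4% were higher with RLE scaling and 25.0% with total counts alone. In bulk RNA, fewer cells with a transcript and less of it per cell cannot be told apart. The summed level of 6 osteoclast markers was 14.2 to 25.2 CPM in DMEM and 40.4 to 43.8 CPM in CM, with Calcr at 0 in both groups. Most of this difference came from the metalloprotease Mmp9, with a mean of 12.5 CPM in DMEM and 31.3 CPM in CM. Mean levels of Dcstamp (4.27 to 7.74 CPM) and Ocstamp (0.139 to 0.725 CPM) also rose. Ctsk went from 2.74 to 2.27 CPM and Oscar from 0.0704 to 0.0136 CPM. The part of the osteoclast markers in the results was not tested.

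**Figure D2:**
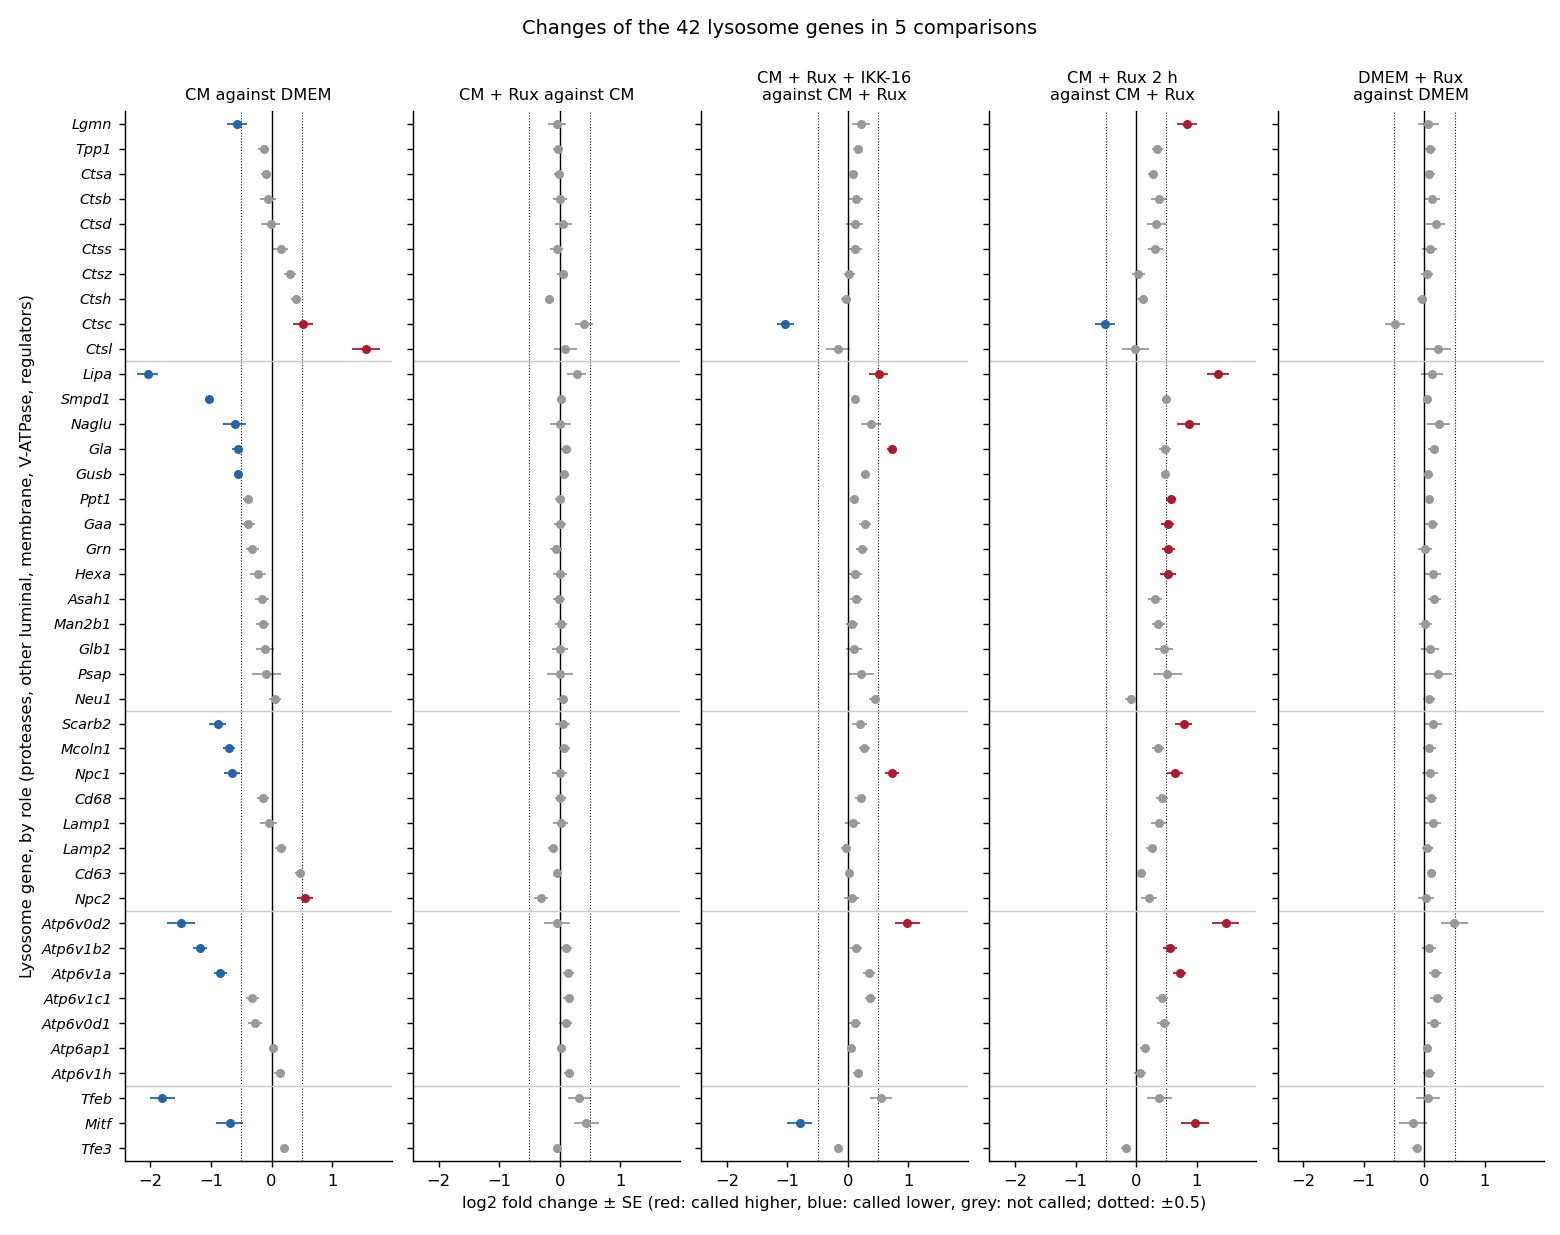
Log2 fold change ± SE of each lysosome gene (rows, grouped by role) in 5 comparisons (panels), from edgeR. Red and blue points were called higher and lower, and dotted lines mark the fold limit of 0.5. CM against DMEM holds 14 blue and 3 red points, both ruxolitinib panels hold only grey points, IKK-16 holds 4 red and 2 blue points, and 2 h holds 13 red points and 1 blue point.

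Ruxolitinib was examined by comparing CM + Rux with CM, and none of the 42 lysosome genes was called. Of all genes tested, 1.2% were called higher and 2.13% lower. DESeq2 called 0 of the 42 as well. By unadjusted p below 0.05, 1 gene was higher and 2 were lower in edgeR. Log2 fold changes ran from -0.31 (Npc2) to 0.44 (Mitf), with standard errors of 0.06 to 0.21 and a median of 0.01. Lipa stood at 692, 530 and 538 CPM in CM + Rux, just above the 3 CM samples, with a log2 fold change of 0.28 ± 0.16 (edgeR, adjusted p = 0.459). Tfeb stood at 22.3, 22.1 and 30.5 CPM (0.33 ± 0.19, adjusted p = 0.472). Ctsc stood at 667, 520 and 699 CPM and overlapped with CM (0.41 ± 0.15, adjusted p = 0.161). In an edgeR fit blocked by replicate number, 0 of the 42 genes were called as well. Mitf (0.44, adjusted p = 0.016), Npc2 (-0.30, adjusted p = 0.0349) and Ctsc (0.41, adjusted p = 0.0396) then passed the p limit and not the fold limit. Levels of Atp6v0d2 (15.1, 13.02 and 16.4 CPM) and Npc1 (139, 141 and 147 CPM) overlapped with those of CM. A missed threshold does not show that levels with and without ruxolitinib were alike.

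Without tumor factors, DMEM + Rux was compared with DMEM, and again 0 of 42 genes were called, beside 0.0% of all genes called higher and 0.97% called lower. DESeq2 also called 0 of 42, and 1 gene each way had an unadjusted p below 0.05. Those were Atp6v0d2 (56.9, 46.5 and 78.7 CPM, log2 fold change 0.49 ± 0.22, adjusted p = 0.945 in edgeR) and Ctsc (242, 257 and 213 CPM, -0.48 ± 0.16, adjusted p = 0.502). Both lay outside the range of the DMEM samples. The difference between the effect of ruxolitinib in CM and in DMEM was then tested as an interaction. None of the 42 genes was called in either direction, beside 0.234% of all genes called higher and 0.178% called lower. By unadjusted p, 1 gene had a p below 0.05, which was Ctsc with a difference of 0.88 ± 0.22 on the log2 scale (adjusted p = 0.101). With the replicate number as a block, this difference was 0.92 ± 0.18 with an adjusted p of 0.0101 in edgeR and was called, and DESeq2 called it as well.

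IKK-16 was examined by comparing CM + Rux + IKK-16 with CM + Rux. With IKK-16, 4 lysosome genes were higher and 2 were lower, beside 4.07% of all genes called higher and 3.66% called lower. The V-ATPase subunit Atp6v0d2 rose 1.98-fold, Npc1 1.66-fold, Gla 1.65-fold and Lipa 1.42-fold. The protease Ctsc fell to 0.490 and the regulator Mitf to 0.576 of the level in CM + Rux. The median log2 fold change was 0.13 over the 42 genes and -0.00187 over all genes, and 36 of the 42 had a positive value. These calls come from the fit without a block. With the replicate number as a block, 4 genes were called higher and 2 lower as well, with Tfeb in place of Lipa.

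Atp6v0d2 stood at 32.1, 23.5 and 32.2 CPM with IKK-16, all above the 3 CM + Rux samples, with a log2 fold change of 0.99 ± 0.21 (SE, edgeR, adjusted p = 0.00638). Npc1 stood at 240, 227 and 241 CPM, and Gla at 301, 232 and 241 CPM. For both genes no sample overlapped with CM + Rux, where Npc1 had 139 to 147 CPM and Gla 151 to 160 CPM, and both had a log2 fold change of 0.73 (adjusted p = 0.00175 and 1.91e-04). Lipa stood at 1069, 628 and 810 CPM with IKK-16 and overlapped with CM + Rux, whose highest sample had 692 CPM. Its log2 fold change of 0.51 ± 0.16 (adjusted p = 0.0469) was close to both limits. With the replicate number as a block it was 0.498, with an adjusted p of 0.00641, and fell under the fold limit. Leaving out CM + Rux sample 2 or 3 or IKK-16 sample 1 or 3 also ended the call of Lipa.

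Ctsc stood at 278, 285 and 360 CPM with IKK-16 against 667, 520 and 699 CPM in CM + Rux. The groups were far apart, and the log2 fold change was -1.03 ± 0.15 (adjusted p = 6.5e-04). Its level with IKK-16 lay beside that of DMEM (360 and 302 CPM). The 3 regulators again differed. Mitf stood at 87.6, 55.7 and 84.9 CPM with IKK-16 against 161, 107 and 129 CPM without, a log2 fold change of -0.80 ± 0.21 (adjusted p = 0.019). The groups did not overlap, and the call was lost in 4 of 13 alternative fits (without CM + Rux sample 1, without IKK-16 sample 2, with total counts and with only the groups compared). Tfeb stood at 36.4, 28.8 and 43.2 CPM, which overlapped with CM + Rux, and its log2 fold change of 0.54 ± 0.19 had an adjusted p of 0.0663. With the replicate number as a block, Tfeb was called, with an adjusted p of 0.00311. Tfe3 stood at 410, 421 and 418 CPM against 476, 462 and 465 CPM, a log2 fold change of -0.17 (adjusted p = 0.11). Atp6v0d2, Npc1, Gla and Ctsc were called in all 13 alternative fits, which include each sample left out in turn.

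Other members came close to the limits with IKK-16. The sialidase Neu1, which stood at 0.05 in CM, had a log2 fold change of 0.45 (adjusted p = 0.00504), Atp6v1c1 of 0.37 (adjusted p = 0.0153), Atp6v1a of 0.35 (adjusted p = 0.0289) and Gusb of 0.28 (adjusted p = 0.00733), all under the fold limit. Smpd1 (0.12), Atp6v1b2 (0.13), Scarb2 (0.19), Lgmn (0.22), Mcoln1 (0.27) and Naglu (0.38), which were lower in CM, had adjusted p-values of 0.0614 to 0.44. In the edgeR fit blocked by replicate number, these were 0.129 for Smpd1, 0.285 for Atp6v1b2 and 0.0504 for Scarb2. Lgmn (0.0388), Mcoln1 (0.0144) and Naglu (0.00109) passed the p limit in that fit, and all 6 genes stayed under the fold limit. By unadjusted p below 0.05, 22 of the 42 genes were higher and 3 lower in that fit, against 14 and 3 without the block. With total counts in place of RLE scaling, 6 of the 42 genes were called higher and 1 lower, and the higher share of all calls went from 52.7% to 67.5%. The osteoclast markers summed to 25.2 to 30.4 CPM with IKK-16 and to 36.2 to 42.4 CPM in CM + Rux. The mean of Mmp9 with IKK-16 was lower than the 22.3 CPM in CM + Rux. Means of Dcstamp (8.85 against 12.9 CPM) and Ocstamp (0.781 against 1.06 CPM) were also lower with IKK-16. Those of Ctsk (3.26 against 2.15 CPM) and Oscar (0.029 against 0.017 CPM) were higher. The part of the osteoclast markers in these changes was not tested.

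**Figure D3:**
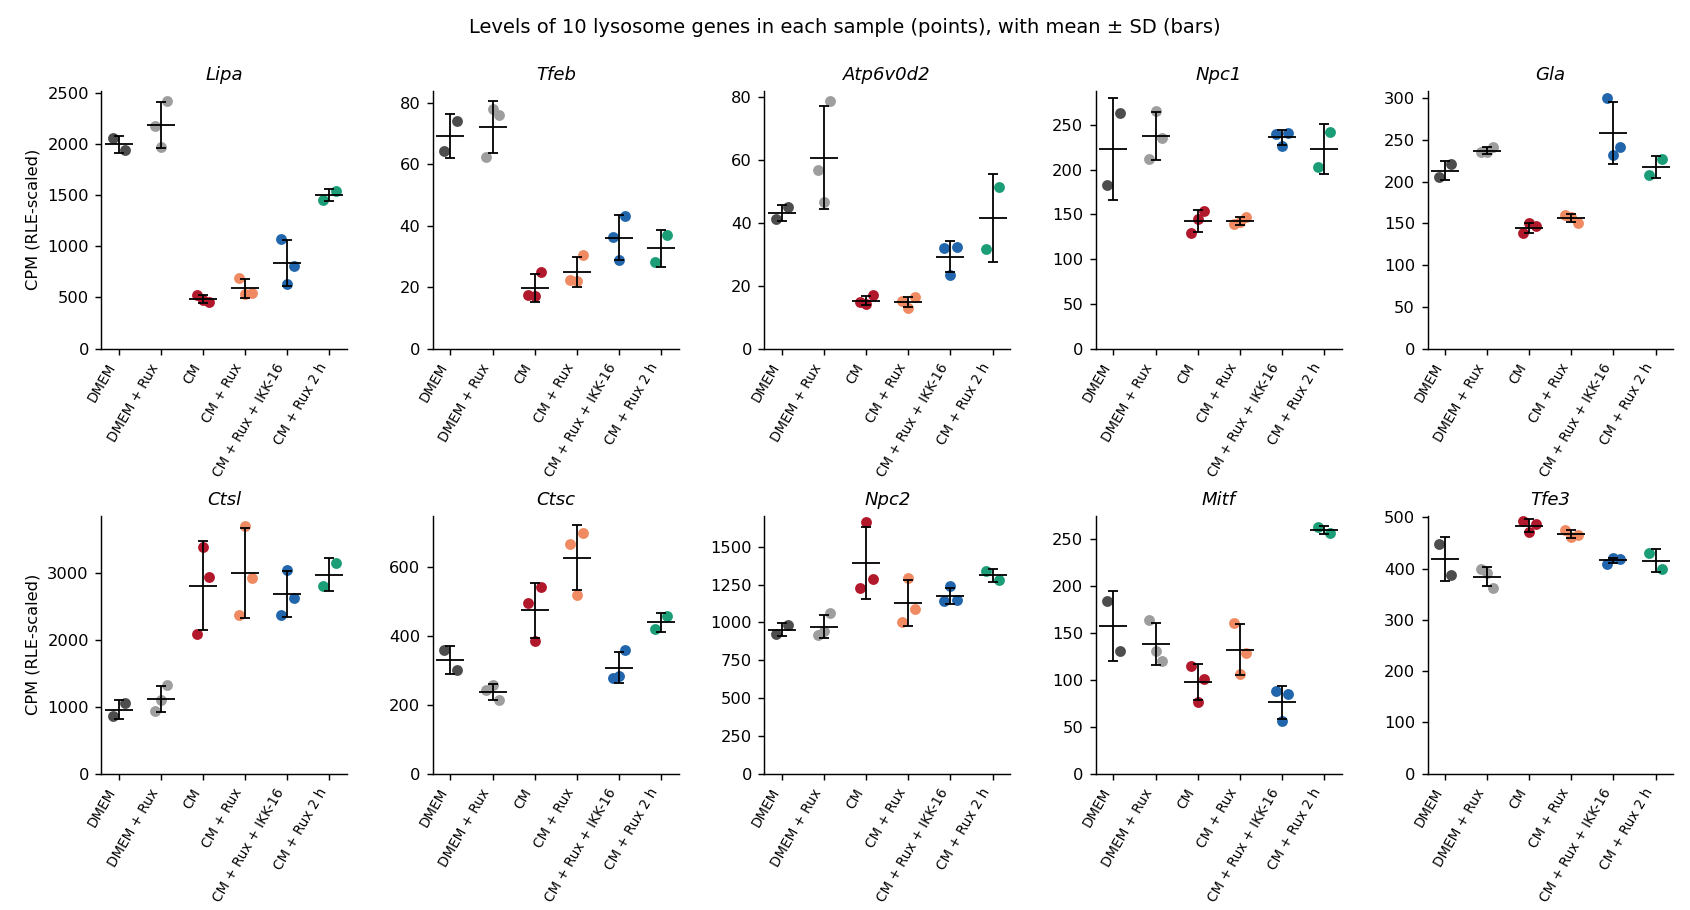
Level in CPM (vertical axes, from 0) of 10 lysosome genes in each sample of the 6 groups (points), with mean ± SD (bars). Lipa, Tfeb and Atp6v0d2 are lowest in CM and CM + Rux. With IKK-16, Npc1 lies between the 2 DMEM samples and Gla lies above both. Ctsl stays high in all 4 groups with CM, and Mitf is highest in CM + Rux 2 h (257 and 263 CPM).

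Samples of CM and ruxolitinib labelled 2 h were compared with those labelled 4 h. The 2 h samples had 13 lysosome genes higher and 1 lower, beside 12.6% of all genes called higher and 10.7% called lower. The median log2 fold change was 0.41 over the 42 genes and -0.03 over all genes. Higher genes came from every role, with 1 protease, 6 other luminal enzymes, 2 membrane proteins, 3 V-ATPase subunits and 1 regulator. Atp6v0d2 stood at 31.8 and 51.5 CPM at 2 h and Lipa at 1455 and 1540 CPM, each above all CM + Rux samples of 4 h. Their log2 fold changes were 1.48 ± 0.23 (SE, edgeR, adjusted p = 2.0e-04) and 1.35 ± 0.18 (adjusted p = 6.25e-05). Mitf stood at 263 and 257 CPM, above every sample of the 5 other groups, with a log2 fold change of 0.97 ± 0.23 (adjusted p = 0.00391). Npc1 stood at 203 and 243 CPM (0.64 ± 0.14, adjusted p = 0.00208).

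Further genes higher at 2 h were Naglu (0.87), Lgmn (0.84), Scarb2 (0.79), Atp6v1a (0.72), Ppt1 (0.58), Atp6v1b2 (0.56), Grn (0.53), Hexa, the α subunit of β-hexosaminidase (0.52), and Gaa (0.52), given as log2 fold changes. Gla (209 and 227 CPM, 0.48) and Gusb (0.48) passed the p limit and fell short of the fold limit. Ctsc stood at 421 and 459 CPM at 2 h, below the 3 samples of 4 h, with a log2 fold change of -0.51 ± 0.17 (adjusted p = 0.0251). This call was lost when either 2 h sample, or CM + Rux sample 1 or 3, was left out. Tfeb stood at 28.3 and 36.9 CPM (0.39, adjusted p = 0.159) and Tfe3 at 431 and 400 CPM (-0.17, adjusted p = 0.0883). Ctsl (2795 and 3147 CPM) and Npc2 (1341 and 1281 CPM) overlapped with 4 h. Without the 2 h sample 3, 10 of the 42 genes were called and the calls of Naglu, Gaa and Hexa, which were highest in sample 3 of every group that has one, were lost, and without the 2 h sample 2, 18 were. The calls of Grn and Hexa were also lost without CM + Rux sample 1, and that of Gaa without CM + Rux sample 2. With total counts in place of RLE scaling, 9 genes were called higher and 1 lower, and the higher share of all calls went from 54.0% to 44.0%. Markers of dendritic cells summed to 8.53 to 12.7 CPM at 2 h and to at most 2.28 CPM in the other groups, nearly all of it from Zbtb46, with Flt3 at 0 at 2 h, and their part in these results was not tested.

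The comparison of CM with DMEM uses other samples than the comparisons with IKK-16 and with 2 h, so that their changes can be set side by side. The latter share the CM + Rux samples and are not compared with each other. All 4 genes called higher with IKK-16 (Atp6v0d2, Npc1, Gla and Lipa) were among the 14 called lower in CM, which is the whole of the former list and 28.6% of the latter. Of all genes tested, 74.2% of those called higher with IKK-16 were called lower in CM, and 12.6% of those lower in CM were higher with IKK-16. At 2 h, 9 genes called higher were among those 14, which is 69.2% of the 13 higher at 2 h and 64.3% of the 14, beside 64.1% and 33.5% among all genes tested. Across the 42 genes, the change in CM and the change with IKK-16 had a Pearson r of -0.52 and a Spearman rho of -0.67, and 29 of the 30 genes with a negative value in CM had a positive one with IKK-16, as did 36 of all 42. Over all 12372 genes r was -0.57 and rho -0.56, and 71.5% of the genes with a negative value in CM had a positive one with IKK-16. For the 2 h samples the values of the 42 genes were -0.76 and -0.85, and 30 of 30, with 38 of all 42 positive. Over all genes they were -0.44 and -0.34, and 60.1%. These are descriptions across genes of the same libraries, which are not independent replicates. Mitf was called lower both in CM and with IKK-16. Ctsl and Npc2, called higher in CM, had log2 fold changes of -0.16 and 0.06 with IKK-16 and of -0.01 and 0.22 at 2 h.

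**Figure D4:**
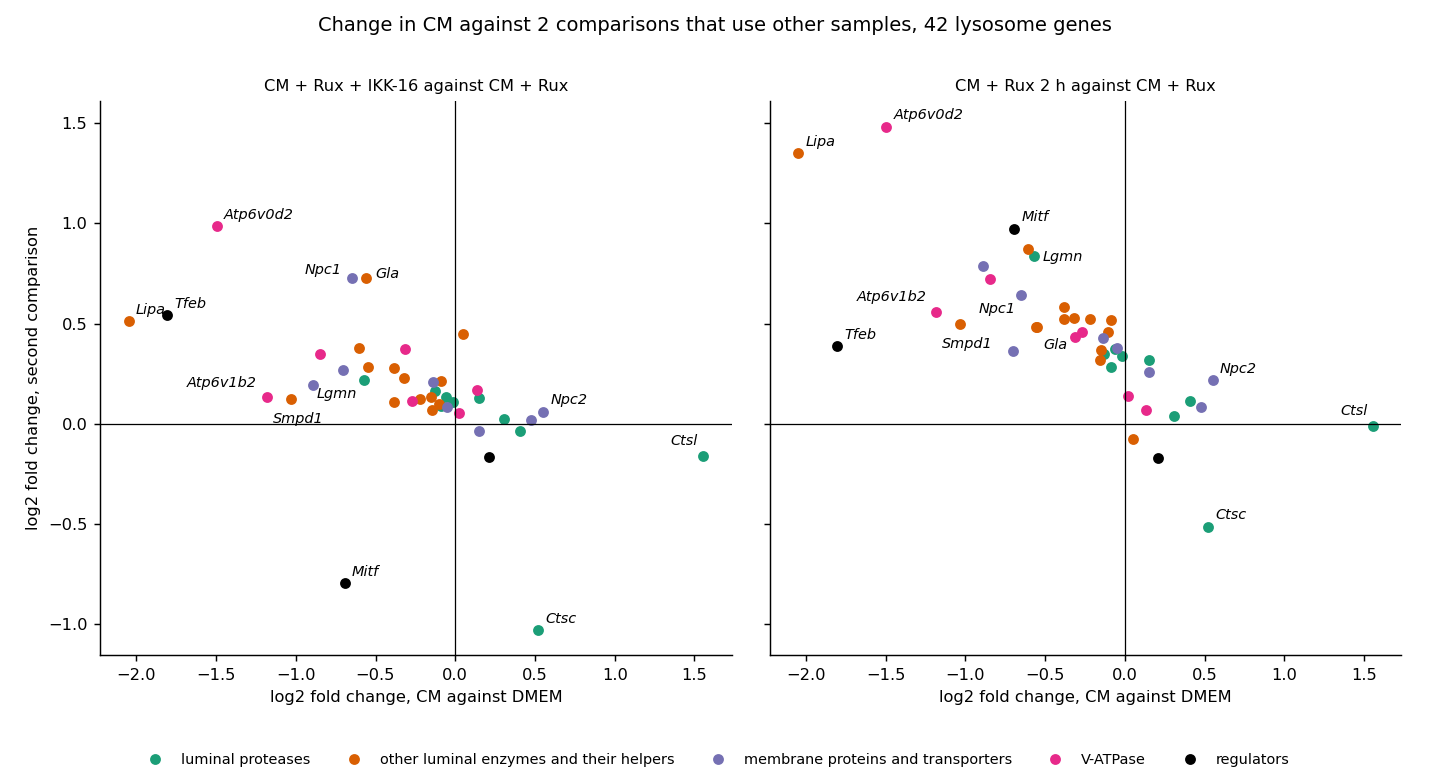
Log2 fold change of CM against DMEM (horizontal axes) against that of CM + Rux + IKK-16 (left) and CM + Rux 2 h (right), each relative to CM + Rux, for the 42 lysosome genes coloured by role. Most points lie in the upper left, with Lipa and Atp6v0d2 farthest out, Ctsc in the lower right, Ctsl at the far right near 0, and Mitf below 0 on the left panel and above 0 on the right panel.

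A list of 95 further lysosome genes, of which 90 passed the filter, was counted in the same way. In CM, 12 were called higher and 30 lower (all genes 20.9% and 24.1%), and the median log2 fold change was -0.24. The highest were Acp5, tartrate-resistant acid phosphatase (2.83), and the channel Mcoln2 (1.86), and the lowest were the GTPase Rragb (-2.57, from 2.56 to 0.440 CPM) and Sgsh, which degrades heparan sulfate (-2.15). Ruxolitinib in CM lowered 3 and raised 0 (all genes 2.13% and 1.2%), and those with the largest changes were the phospholipase Pla2g15 (-0.98) and the sialomucin Cd164 (-0.69). Ruxolitinib in DMEM gave 0 calls in edgeR (all genes 0.0% higher and 0.97% lower), with 1 gene at an unadjusted p below 0.05. With IKK-16, 9 were called higher, led by Fnip2 (1.33) and Rragd (0.90), which act in the nutrient-sensing branch that controls MiT/TFE factors, and 1, Acp5 (-0.98), was called lower (all genes 4.07% and 3.66%). At 2 h, 23 were called higher, led by the V-ATPase subunit Atp6v0a1 (1.96) and Sgsh (1.91), and 2 lower, Zkscan3, a repressor of autophagy and lysosome genes (-0.65), and the metal transporter Slc11a1 (-0.58), beside 12.6% and 10.7% of all genes.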

How the data were processed

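RNA of BMDMs was sequenced from stranded TruSeq libraries. The authors trimmed reads with Trimmomatic 0.33, aligned them to GRCm38 with HISAT2 2.1.0 and counted fragments per gene of Ensembl release 100 with featureCounts 1.6.2 (per the labels and the file header), counting by strand and keeping fragments with both ends mapped. The deposited values are whole-number counts of 55487 genes, without normalization or filter. Tests rest on these counts, which summed to between 18449388 and 46215853 per sample.

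Identifiers were matched to symbols for 55141 genes. Samples were grouped by the condition and number in their titles, and all 16 were used. In R 4.3.3, edgeR 4.0.16 (with limma 3.58.1) was fitted with RLE scaling and the quasi-likelihood test to 12372 genes above 1 CPM in at least 2 samples, in 1 model of 6 groups, with Benjamini-Hochberg adjustment. Scaling, filter and thresholds follow the study's methods, which name edgeR with this adjustment and, in the section on statistics, a t test. The quasi-likelihood test of edgeR was chosen here. SE was the log2 fold change over the root of F. DESeq2 1.42.0 and other settings served as alternatives. The script for the fit was tested on simulated data.

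The same replicate number marked samples that deviated together, with correlations of 0.729 to 0.861 between CM + Rux and CM and of 0.718 to 0.836 between CM + Rux + IKK-16 and CM + Rux (8239 genes above 10 CPM), so the numbers were taken to pair the samples there. The other comparisons shared 2 numbers only. The main fit holds no term for these numbers, so that its SE and adjusted p-values ignore the pairing. Values from the fit blocked by replicate number are marked as such.

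The 42 genes, the list of 95 further lysosome genes and the marker lists were chosen with earlier results of these data known. All 42 are named. Values per sample are given for the 3 largest calls in each direction of each comparison, for genes called in 3 or more comparisons and for Tfeb, Tfe3 and Mitf. Of the further genes, the 2 largest calls in each direction are named. Further values were named after they were seen.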

Additional observations from a re-analysis of the deposited data

Results flagged for a closer look

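The effect of ruxolitinib on Pla2g15, a lysosomal phospholipase outside the 42 genes, differed between media by the interaction test. Its level was 177 ± 7.67 CPM in DMEM (SD, n = 2), 220.5 ± 27.2 CPM in DMEM + Rux (SD, n = 3), 184 ± 6.71 CPM in CM (SD, n = 3) and 93.1 ± 4.64 CPM in CM + Rux (SD, n = 3). The change in CM minus the change in DMEM was -1.30 ± 0.13 on the log2 scale (SE, edgeR, adjusted p = 9.52e-04). It was called in 18 of 18 alternatives, with values from -1.39 to -1.21 and an adjusted p of at most 0.013 in edgeR or DESeq2.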

How the results depend on the processing

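In CM against DMEM, 1 of the 42 genes was called higher with total counts in place of RLE scaling and 7 with no fold limit. With IKK-16, 8 were called higher with no fold limit, and 1 was called lower with total counts, with only the groups compared, and 1 to 2 with each sample left out in turn. In the ruxolitinib interaction, 1 gene, Ctsc, was called higher with no filter, with the replicate block and with DESeq2. In the 2 h samples, 28 were called higher with no fold limit, and 0 lower with the replicate block and with only the groups compared, and 0 to 1 with each sample left out in turn.

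No value changed sign among called results. Over the 42 genes and 80 alternative fits (3360 results), 3282 kept their side of the thresholds, 42 lost a call and 36 gained one. The replicate block also ended the calls of Ctsc in CM, of Lipa with IKK-16 (with Tfeb gained) and of Ctsc, Grn and Hexa at 2 h (with Smpd1 gained). In CM it gave Psap a log2 fold change of -0.27 (adjusted p = 0.00238) and Hexa one of -0.30 (adjusted p = 0.00126), under the fold limit, against adjusted p-values of 0.767 and 0.166 without it. Atp6v0d1 (-0.33), Cd68 (-0.19), Tpp1 (-0.18), Asah1 (-0.17), Man2b1 (-0.15) and, upward, Lamp2 (0.15) also passed the p limit in CM only with the block. The numbers of the DMEM and 2 h samples give 2 pairs each, with correlations of 0.31 (CM and DMEM), 0.515 (DMEM + Rux and DMEM) and 0.598. With 2 to 3 samples a group, leaving one out sets a lone sample in DMEM or 2 h, which is then assumed to vary like the other groups.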
